A study of Mus musculus with 6 samples.

Results

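The genes described here are 39 genes of the lysosome and of lysosome-related organelles, listed by symbol as hydrolases, membrane proteins and biogenesis factors. Their transcripts were measured in the antrum, the lower part of the mouse stomach, in Satin, Beige and C57/BL6 (BL6) mice. Of the 39, 37 had a probe set (a group of probes for 1 transcript) annotated to that gene alone, against 12393 genes on the whole array. Cd63 and Vps33a were not analysed here. After genes with a low mean signal were left out, 36 of the 39 were tested, against 9395 genes in all. Hps1, which encodes a guanine exchange subunit needed for pigment granules, fell below that limit.

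Satin mice carry a mutation in the forkhead factor gene Foxq1. Beige mice carry a mutation in Lyst, the lysosomal trafficking regulator. BL6 mice are titled as controls, and so are the Beige mice. Each strain has 2 Affymetrix arrays, numbered replicate 1 and 2, of Trizol-extracted total RNA. The sources used here give no age, sex or genetic background. Nor is it stated whether the Satin mice also carry a Lyst mutation, as some satin stocks such as SB/LeJ do. Whole antral tissue was used, so fewer cells of a type and less RNA per cell cannot be told apart.

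Lysosomes are acidic organelles that break down proteins, glycans and lipids delivered by endocytosis and autophagy. A proton pump, the V-ATPase, acidifies them, and soluble hydrolases work inside a membrane coated with glycosylated proteins. The transcription factor TFEB binds an E-box-like element upstream of many lysosomal genes and raises their transcription. Lysosome-related organelles, such as melanosomes and platelet dense granules, are built with the same sorting machinery. Loss of LYST gives enlarged lysosomes and granules, as in human Chediak-Higashi syndrome.

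The 250 bases upstream of each annotated start were searched for TCACGTG, the core of the TFEB element. Both strands were searched (CACGTGA on the other strand). RefSeq promoter sequences of the mouse assembly GRCm38.p6 were available for 33 of the 39 genes. Of these, 9 held a match (27.3%), against 968 of 27025 genes with an entry (3.58%) and 423 of 7599 of the genes tested on the arrays (5.57%). In the lists of other lysosomal pathway genes described below, 24 of 125 genes with an entry held one (19.2%). By list the share ran from 0% of BEACH proteins to 40% of enzyme sorting genes, so a match was not particular to the members. A match is a description of these letters and not a measured binding site. The shorter CACGTG, which every TCACGTG contains, was found upstream of 11 of the 33 genes (33.3%) and of 6.86% of all genes. The stretches around the matches are printed below for the 8 genes that were also tested, from 5′ to 3′ along each gene's strand, with matches in capitals. Where matches on both strands overlap, TCACGTGA is in capitals.
Lamp1: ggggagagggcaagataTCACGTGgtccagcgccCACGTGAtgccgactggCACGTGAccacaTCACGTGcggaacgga
Mcoln1: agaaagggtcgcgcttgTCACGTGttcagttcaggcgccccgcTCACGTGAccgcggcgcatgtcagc
Ctsa: gaacaatgagcaaactgTCACGTGAtgcag
Ctsd: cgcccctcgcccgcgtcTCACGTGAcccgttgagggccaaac
Gaa: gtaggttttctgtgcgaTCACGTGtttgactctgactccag
Glb1: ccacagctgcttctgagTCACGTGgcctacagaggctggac
Naglu: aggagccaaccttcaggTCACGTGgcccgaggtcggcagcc
Atp6v1a: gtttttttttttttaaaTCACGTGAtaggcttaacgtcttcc
Lamp1 held 4 matches within 79 bases (chr8:13159082-13159160, plus strand). Mcoln1 held 2 (chr8:3500430-3500497, plus strand). The other stretches lie at chr2:164833743-164833772 for Ctsa, chr11:119267805-119267845 for Gaa, chr9:114401012-114401052 for Glb1 and chr11:101070003-101070043 for Naglu, all on the plus strand. Those of Ctsd (chr7:142387902-142387943) and Atp6v1a (chr16:44139367-44139408) lie on the minus strand. Ctsd had a second match 245 bases upstream of its start, which is not printed. Among the genes not analysed on the arrays, Vps33a, a tethering subunit for lysosome fusion, held 2.

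**Figure D1:**
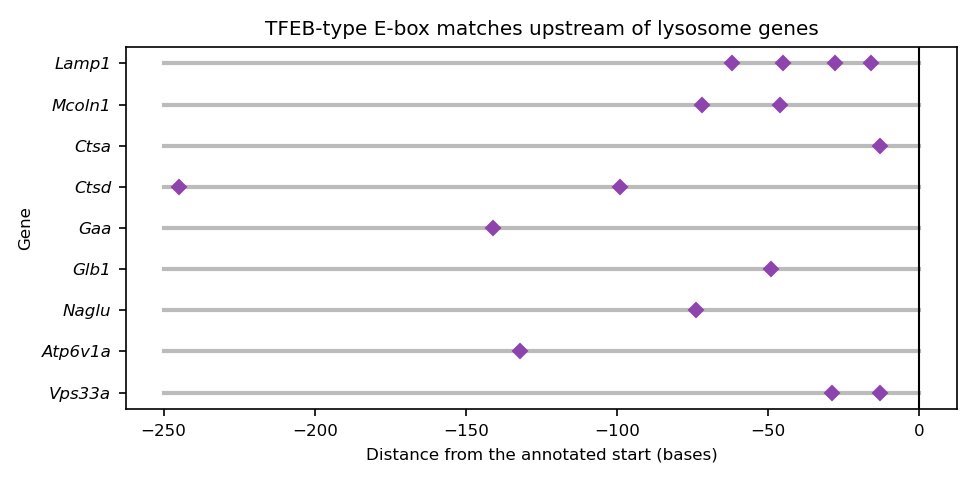
Positions of TCACGTG, on either strand, in the 250 bases upstream (x axis, bases from the annotated start) of the 9 lysosome genes that hold a match. Diamonds mark the 5′ end of each match, and Lamp1 shows 4 of them between 62 and 16 bases upstream.

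The arrays differed in brightness. Median signals lay between 58.6 and 74.15 on the Satin arrays, against 38.2 to 49.5 on the Beige and BL6 arrays. Values below are log2(signal + 32) after quantile normalization, which gives all arrays 1 distribution, so each difference is relative to the bulk of genes. Such a difference understates the change of dim genes. For Gapdh, the 5′ probe set read 0.526 times the 3′ one on BL6 replicate 1 and 0.988 to 1.18 times on the other arrays, where a low ratio can reflect degraded RNA. Transcripts of 9 pancreatic acinar genes summed to a normalized signal of 10313 to 69980 on the replicate 2 arrays, against 1334 to 2738 on the replicate 1 arrays. Their part in the results was not tested.

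As a group, lysosomal genes had similar means on all 6 arrays. The mean over the 36 genes was 8.52 and 8.47 in Satin, against 8.59 and 8.48 in Beige and 8.57 and 8.58 in BL6. Both Satin arrays lay below both BL6 arrays, and the Beige arrays overlapped with either strain. Between the 2 arrays of a strain, single members differed by a median of 0.14 in Satin, 0.16 in Beige and 0.24 in BL6. Over all genes these medians were 0.20, 0.25 and 0.31, so the members were measured with less scatter than the bulk of genes. The genes compared were not matched for brightness. The largest replicate differences were 0.89 for Gaa in Satin, 0.97 for Tfeb in Beige and 0.98 for Mcoln1 in BL6. For these 3 genes a strain mean rests on 2 distant values.

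**Figure D2:**
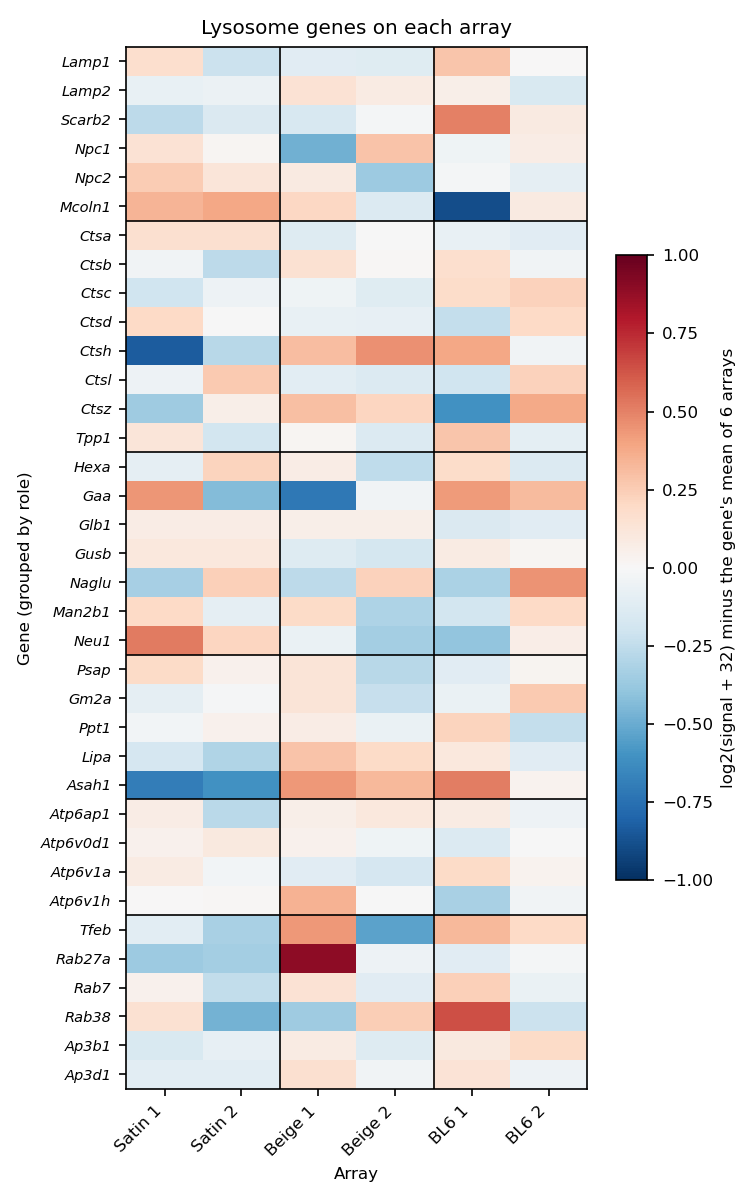
Level of each of the 36 tested lysosome genes (rows, grouped by role) on each of the 6 arrays (columns), as log2(signal + 32) minus the gene's mean of the 6 arrays. The Asah1 and Ctsh rows are blue on both Satin arrays, and most other rows show no strain pattern.

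The comparison of Beige with BL6 asks whether lysosomal transcripts differ in a mouse with a mutated lysosomal trafficking regulator. None of the 36 genes was called higher or lower in Beige. A gene was called where limma's moderated test gave a p under 0.05 after Benjamini-Hochberg adjustment, taken across the 9395 genes. This comparison had no call in any gene (0%), with 482 genes (5.13%) at an unadjusted p under 0.05, among them 1 member. The median difference of the members was -0.06, against -0.01 for all genes, with 15 members above 0 and 21 below, where 51.2% of all genes lay below. Their differences ran from -0.74 to 0.49, and 35 of 36 were smaller than 0.5 in size. For 30 of 36 members (83.3%) the 95% interval of the difference lay within 1 log2 unit, a 2-fold change, on either side of 0, against 69.0% of all genes. Here too the genes were not matched for brightness. For 9 members the interval lay within 0.5. With 2 arrays per strain small changes were not detectable, and larger ones could also go uncalled. Of all genes tested, 90 differed at least 2-fold between Beige and BL6, and none was called.

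Lyst itself was dim. Its brightest probe set read 6.09 and 5.68 in Satin, 6.92 and 6.06 in Beige, and 6.64 and 6.62 in BL6, where the limit for testing was 5.74. The Beige arrays lie on both sides of the BL6 arrays. The difference between Beige and BL6 was -0.14 (SE 0.35, 95% interval -0.92 to 0.65, adjusted p = 0.962 by limma). In Satin minus both controls it was -0.68 (SE 0.30, adjusted p = 0.401), with the Satin value of 6.09 just above the lowest control value of 6.06. Foxq1, mutated in Satin, read 10.46 and 10.41 in Satin, against 9.88 and 9.38 in Beige and 10.13 and 10.17 in BL6, a difference of 0.55 (SE 0.16, adjusted p = 0.167). A mutant transcript need not change in level, so neither gene checks the strain labels.

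The member with the smallest p between Beige and BL6 was Gaa, acid alpha-glucosidase, which degrades lysosomal glycogen. Its values were 6.67 and 7.35 in Beige, and 7.81 and 7.70 in BL6. Both Beige arrays lay below both BL6 arrays, with a difference of -0.74 (SE 0.33, adjusted p = 0.864 by limma). Its second probe set gave 0.46, the opposite sign. Scarb2, the membrane receptor that carries glucocerebrosidase to lysosomes, read 9.05 and 9.19 in Beige, and 9.72 and 9.30 in BL6. The difference was -0.39 (SE 0.19, adjusted p = 0.864), and a dimmer probe set gave 0.12. Rab27a, a small GTPase of granule secretion, had the largest positive difference, 0.49 (SE 0.33, adjusted p = 0.865). It rested on 1 array, with 7.56 and 6.61 in Beige, and 6.55 and 6.64 in BL6.

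In 7 members both Beige arrays lay below both BL6 arrays (Lamp1, Scarb2, Ctsc, Gaa, Gusb, Atp6v1a and Ap3b1), or 19.4% of the 36. Over all genes 15.7% did so. In 4 members both Beige arrays lay above (Lamp2, Glb1, Lipa and Atp6v1h), 11.1% against 15.9% of all genes. These shares lie near those of all genes. Lamp1 and Lamp2 encode related membrane glycoproteins that coat the lysosome. Lamp1 read 11.09 and 11.08 in Beige, and 11.48 and 11.21 in BL6, a difference of -0.26 (SE 0.18). Lamp2 read 10.10 and 10.03 in Beige, and 10.01 and 9.80 in BL6, a difference of 0.16 (SE 0.15). Neither passed the test.

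Macrophages are rich in lysosomes, and their markers were measured for that reason. Of 13 markers tested none was called between Beige and BL6 by limma. At an unadjusted p under 0.05 there were 5 (38.5%), all higher in Beige, against 5.13% of all genes. In 9 the difference lay above 0, with a median of 0.58, where 51.2% of all genes lay below 0. The summed normalized signal of the 14 markers on the arrays, with the untested Fcgr1, was 2856 and 2710 in Beige, and 2215 and 1889 in BL6. On the Satin arrays it was 1787 and 2418. Whether macrophage content moved any lysosomal gene was not tested. Markers of melanocytes, whose melanosomes are affected in both Beige and Hermansky-Pudlak mice, summed to no more than 313 on any array, and Dct lay below the limit for testing.

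The comparison of Satin with the control strains gave 1 call among the lysosomal genes. Asah1, acid ceramidase, which splits ceramide into sphingosine and a fatty acid, fell in Satin to 1.96-fold lower. Its normalized values were 9.10 and 9.18 in Satin, against 10.22 and 10.11 in Beige and 10.30 and 9.82 in BL6. Both Satin arrays lay below all 4 control arrays. In the deposited signals the order was the same, with 701.3 and 688.9 in Satin, 1007.5 and 1219.7 in Beige, and 941.8 and 710.9 in BL6. There the lower BL6 value stands close to the Satin values.

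The strain means of Asah1 were 9.14 ± 0.06 in Satin, 10.16 ± 0.08 in Beige and 10.06 ± 0.34 in BL6 (SD, n = 2 arrays each). Against the mean of both controls the difference was -0.97 (SE 0.16, 95% interval -1.33 to -0.60, adjusted p = 0.0224 by limma). Against Beige it was -1.02 (SE 0.19, adjusted p = 0.0437). Against BL6 it was -0.92 (SE 0.19, adjusted p = 0.0708), which did not pass, though it did without BL6 replicate 2 (adjusted p = 0.0140). The gene has 1 probe set here, so no second measurement bears on it. With the replicate number as a block, the call against both controls was kept (adjusted p = 0.0265) and the call against Beige was lost (adjusted p = 0.0504).

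The Asah1 call depended on the processing and on single arrays. The difference against both controls was negative under all 16 other settings, from -1.08 to -0.39, and the call was kept under 8. It was lost without Satin replicate 1 (adjusted p = 0.210), Satin replicate 2 (0.0889), Beige replicate 1 (0.155) or Beige replicate 2 (0.123), in limma fits where a lone array is assumed to vary like the others. It was also lost without the intensity trend (0.143), with median centring (0.131), with the arrays as deposited (0.137) and with scaling to the hybridization controls (0.164). Relative to the median of all genes, Asah1 stood at -0.87 both as deposited and with median centring, and at -0.86 with the hybridization controls.

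Against both controls 135 of all genes were called (1.44%), 94 of them lower (1%) and 41 higher (0.436%). A single call among 36 members lies near that background. Against Beige 84 genes were called (0.894%), of which the lower ones were 0.671% of all genes, with Asah1 the 1 member. Against BL6 70 genes were called (0.745%, with 0.522% lower) and no member, while 4 of 36 members had an unadjusted p under 0.05, against 1181 of all genes (12.6%). The median difference of the members was -0.04 against both controls, with 17 above 0 and 19 below, where 50.2% of all genes lay below. It was 0.01 against Beige, with 17 members and 49.7% of all genes below 0. It was -0.10 against BL6, with 21 members and 51% of all genes below 0. These comparisons share the Satin arrays.

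**Figure D3:**
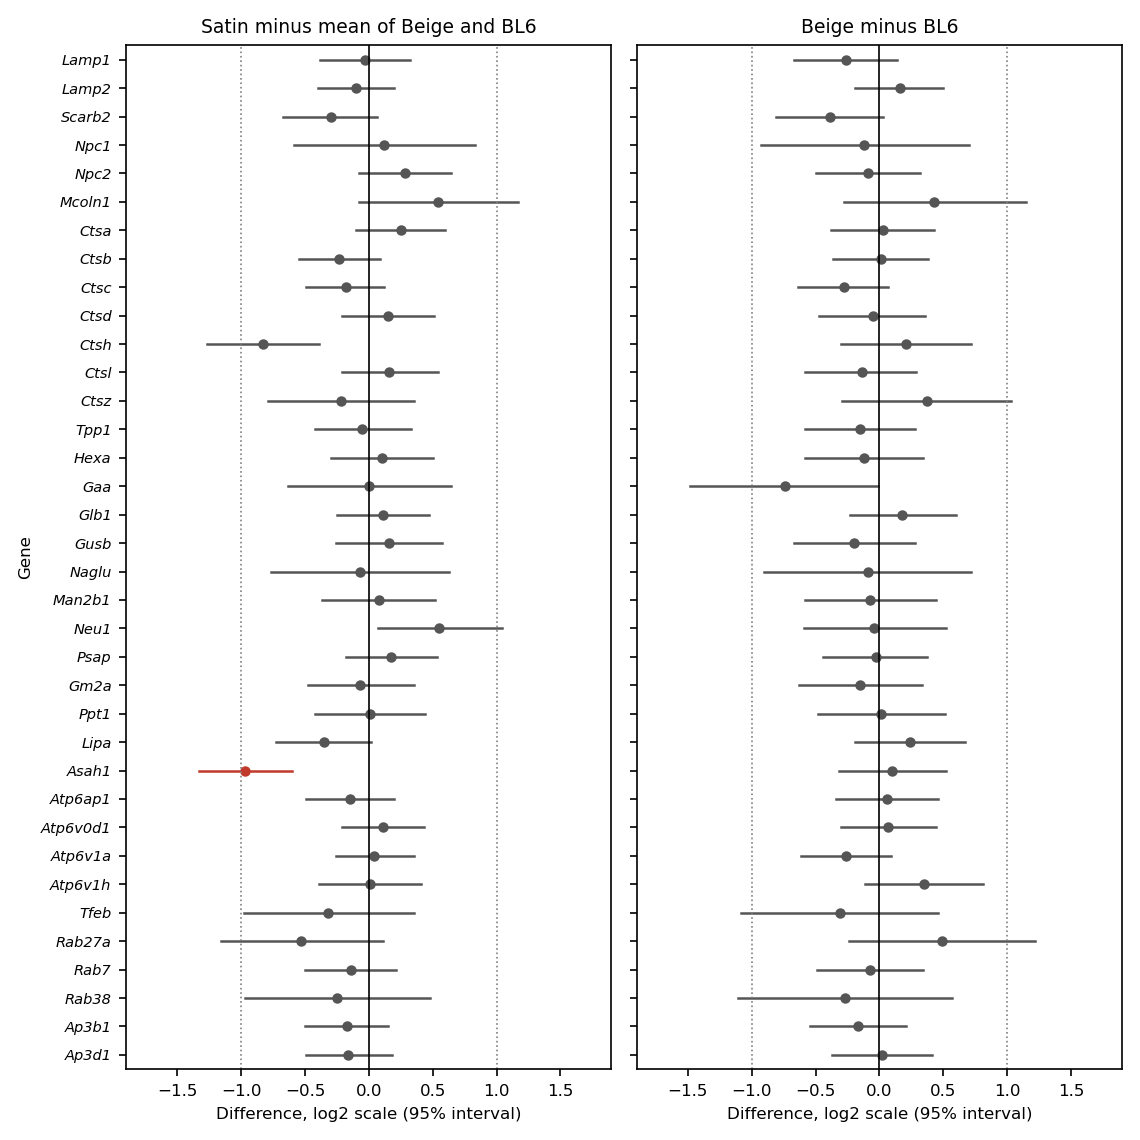
Difference (points) and 95% interval (lines) of each tested lysosome gene on the log2 scale, for Satin minus the mean of Beige and BL6 (left) and Beige minus BL6 (right). Red marks the 1 gene called at an adjusted p under 0.05, Asah1 at -0.97, and dotted lines mark a 2-fold change.

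Among the 8 proteases, Ctsh, cathepsin H, an aminopeptidase, lay lower on both Satin arrays than on all 4 control arrays without passing the test. Its values were 8.15 and 8.71 in Satin, against 9.29 and 9.44 in Beige and 9.37 and 8.95 in BL6. The difference was -0.83 (SE 0.20, 95% interval -1.27 to -0.39, adjusted p = 0.0848). It passed in 1 of 16 other settings, without BL6 replicate 2 (adjusted p = 0.0375 by limma), and the difference ran from -1.10 to -0.25 over the 16. In the deposited signals the strains overlapped, with 346.8 and 482.9 in Satin, against 504.4 and 740.5 in Beige and 489.6 and 371.2 in BL6. The other 7 proteases differed by -0.23 to 0.25.

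The endopeptidase Ctsb, cathepsin B, differed by -0.23 (SE 0.14) and the aspartic protease Ctsd, cathepsin D, by 0.15 (SE 0.16). Dimmer Ctsb probe sets gave 0.01, -0.32 and 0.12. Ctsl, cathepsin L, differed by 0.16 (SE 0.17), Ctsc, the dipeptidyl peptidase that activates granule serine proteases, by -0.18 (SE 0.14), and the carboxypeptidase Ctsz by -0.22 (SE 0.25). Ctsa, which protects neuraminidase and beta-galactosidase in a complex, read 8.09 on both Satin arrays, against 7.80 and 7.92 in Beige and 7.85 and 7.81 in BL6. That is a difference of 0.25 (SE 0.16, adjusted p = 0.579 by limma). Tpp1, a tripeptidyl peptidase, differed by -0.05 (SE 0.17).

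Among the 7 glycosidases 6 lay above 0 against both controls, with a median of 0.10 and no call. With median centring 6, and as deposited and with the hybridization controls all 7, lay above 0. Neu1, the sialidase that works in the same complex as Ctsa, had the largest difference. It read 7.77 and 7.46 in Satin, against 7.18 and 6.91 in Beige and 6.85 and 7.31 in BL6. Both Satin arrays lay above all 4 control arrays, by 0.55 on average (SE 0.22, adjusted p = 0.313). Its other probe sets, both dimmer, gave -0.42 and -0.09.

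Glb1, beta-galactosidase, the third member of that complex, read 7.75 on both Satin arrays, against 7.73 on both Beige arrays and 7.53 and 7.56 in BL6. Its difference was 0.11 (SE 0.16). Gusb, beta-glucuronidase, read 7.20 on both Satin arrays, against 6.97 and 6.92 in Beige and 7.18 and 7.12 in BL6, a difference of 0.16 (SE 0.18). A dimmer Gusb probe set gave 0.49. Hexa, which degrades ganglioside GM2, differed by 0.10 (SE 0.18), the mannosidase Man2b1 by 0.08 (SE 0.20), and Gaa by 0.00 (SE 0.28). Naglu, of heparan sulfate breakdown, differed by -0.07 (SE 0.31) and varied by replicate, with 6.08 and 6.65 in Satin, 6.15 and 6.64 in Beige, and 6.10 and 6.86 in BL6. In each strain the replicate 2 array was the higher one.

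Of the lipid hydrolases and their activators, Lipa followed Asah1 in direction without passing. It encodes acid lipase, which hydrolyses cholesteryl esters. Its values were 7.62 and 7.49 in Satin, against 8.08 and 7.98 in Beige and 7.90 and 7.68 in BL6. Both Satin arrays lay below all control arrays, and the difference was -0.35 (SE 0.17, adjusted p = 0.424). In the deposited signals Satin, with 229.9 and 183.3, overlapped with Beige (198.3 and 236.7). There it lay above BL6 (167.3 and 135.3). Other Lipa probe sets gave normalized differences of -0.57 and -0.39. Psap, the precursor of the saposins that activate acid ceramidase among others, differed by 0.17 (SE 0.16), Gm2a, the GM2 activator, by -0.07 (SE 0.18), and Ppt1, a palmitoyl thioesterase, by 0.01 (SE 0.19). Dimmer probe sets gave 0.56 for Psap, 0.17 for Gm2a and -0.05 for Ppt1.

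**Figure D4:**
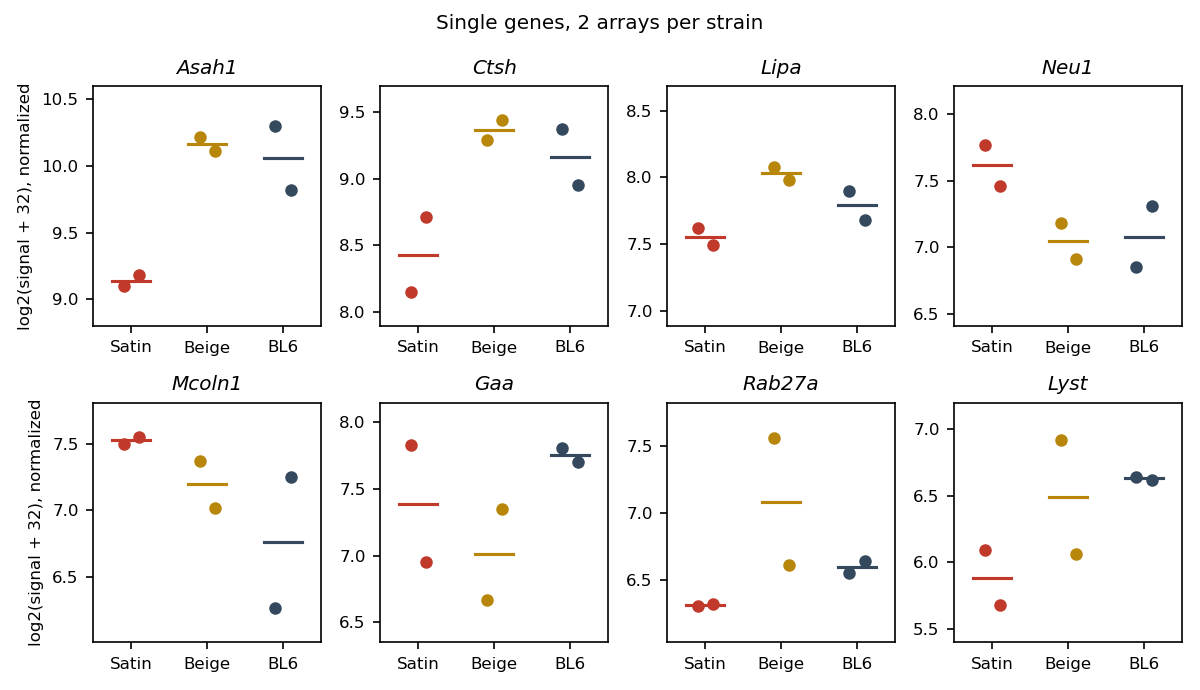
Normalized log2(signal + 32) of 8 genes on the 2 arrays of each strain (points, replicate 1 left of replicate 2) with the strain mean (bar). All panels span 1.8 log2 units, and only in Asah1 does the gap between Satin and the controls pass the test.

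The membrane proteins and lipid transporters had no call in Satin, with differences from -0.30 to 0.54. Mcoln1, the calcium channel of lysosomes, read 7.50 and 7.55 in Satin, against 7.37 and 7.02 in Beige and 6.27 and 7.25 in BL6. The Satin arrays were the highest, but BL6 replicate 1, the array with the low Gapdh ratio, stood apart, and the difference was 0.54 (SE 0.28, adjusted p = 0.474). Its dimmer probe set gave -0.27. Npc2, the soluble cholesterol carrier, read 10.24 and 10.11 in Satin, against 10.08 and 9.62 in Beige and 9.97 and 9.90 in BL6, a difference of 0.28 (SE 0.16). Its membrane partner Npc1 was dim and differed by 0.12 (SE 0.31). Scarb2 differed by -0.30 (SE 0.16), Lamp2 by -0.10 (SE 0.13) and Lamp1 by -0.03 (SE 0.16). Dimmer probe sets gave 0.10 for Scarb2, and 0.22, -0.07 and -0.08 for Lamp2.

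With quantile normalization the 4 V-ATPase genes differed least. Against both controls they lay between -0.15 and 0.11, and all 4 intervals stayed within 0.5 log2 units of 0. Their median was 0.03 there, 0.23 with median centring, 0.56 as deposited and 0.60 with the hybridization controls. Relative to the median of all genes it was 0.03, 0.13, 0.13 and 0.14. The hybridization controls gave 2 of 4 called higher, when 24.2% of all genes were called in either direction. The values that follow are with quantile normalization. Atp6v1a, the catalytic subunit, differed by 0.04 (SE 0.14), Atp6v1h, a regulatory subunit, by 0.01 (SE 0.18), Atp6v0d1, of the stalk, by 0.11 (SE 0.14) and Atp6ap1, an accessory subunit, by -0.15 (SE 0.15).

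All 6 tested regulators and trafficking genes lay below 0 in Satin, with a median of -0.21, and none was called. As deposited and with the hybridization controls 1 of the 6 lay below 0, and with median centring 3 did. All 6 lay below the median of all genes in each scaling. Tfeb was dim and scattered, with 6.44 and 6.22 in Satin, 6.98 and 6.01 in Beige, and 6.87 and 6.74 in BL6. Its difference was -0.32 (SE 0.29, adjusted p = 0.733). Rab27a read 6.30 and 6.32 in Satin, against 7.56 and 6.61 in Beige and 6.55 and 6.64 in BL6, a difference of -0.53 (SE 0.28, adjusted p = 0.498). Its second probe set above the limit gave 0.04. Rab38, a GTPase of pigment granules, differed by -0.25 (SE 0.32), and Rab7, which directs late endosomes to lysosomes, by -0.14 (SE 0.16). A dimmer Rab7 probe set gave 0.04. Ap3b1 and Ap3d1, subunits of the AP-3 adaptor that sorts lysosomal membrane proteins, differed by -0.17 (SE 0.14) and -0.16 (SE 0.15).

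Counted by array, 7 members (19.4%) had both Satin arrays above all 4 control arrays, namely Npc2, Mcoln1, Ctsa, Glb1, Gusb, Neu1 and Atp6v0d1. Over all genes 10.9% did so. In 5 members (13.9%) both lay below, namely Ctsh, Lipa, Asah1, Rab27a and Ap3d1, against 12.7% of all genes. Against the Beige arrays alone, 8 members (22.2%) lay below and 10 (27.8%) above, with 23.4% and 21.5% of all genes. Against the BL6 arrays alone, 9 members (25%) lay below and 9 above, with 22.6% and 20.9% of all genes. These counts come from the same arrays as the differences above and add no separate evidence.

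Where a member had several probe sets, the brightest was used. The 36 members had 25 other probe sets above the limit, of which 13 gave a difference of the same sign between Satin and both controls, and 14 between Beige and BL6. For differences as small as these, the sign thus depended on the probe set about as often as not.

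The 8 tested genes with TCACGTG upstream differed between Satin and both controls by -0.07 to 0.54, with a median of 0.07. The 22 tested genes with an entry and no match differed by -0.53 to 0.55, with a median of -0.09. Between Beige and BL6 both medians were -0.07. Asah1, Ctsh, Npc1, Ctsb, Atp6v1h and Rab38 had no promoter entry and were not searched.

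The direction of many small Satin differences depended on how the arrays were scaled, and 16 of the 36 changed sign against both controls as deposited. There, the median of all genes was 0.43 higher in Satin than in both controls and that of the members was also 0.43 higher. Scaled to the hybridization controls, the medians were 0.47 and 0.48. The members were then called higher in 6 and 12 of 36, and none was called lower. Over all genes 1469 of 9388 and 2210 of 9385 were called higher, with 16.3% and 24.2% called in either direction. Against BL6 alone, 9 and 17 members were called higher. Of all genes 1834 and 2985 were called higher, with 20% and 32.2% called in either direction. Against Beige no member was called in either scaling, with 2.03% and 1.88% of all genes called. Nor was any between Beige and BL6, with 0.032% and 0.0426% of all genes called. The calls over all genes split into 1469 higher and 62 lower as deposited, against 41 and 94 here. The 6 called as deposited were Npc2, Mcoln1, Ctsa, Ctsl, Neu1 and Psap. Relative to the median of all genes, that of the members stood at 0.00 and 0.01 in these scalings, and at -0.04 with quantile normalization.

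**Figure D5:**
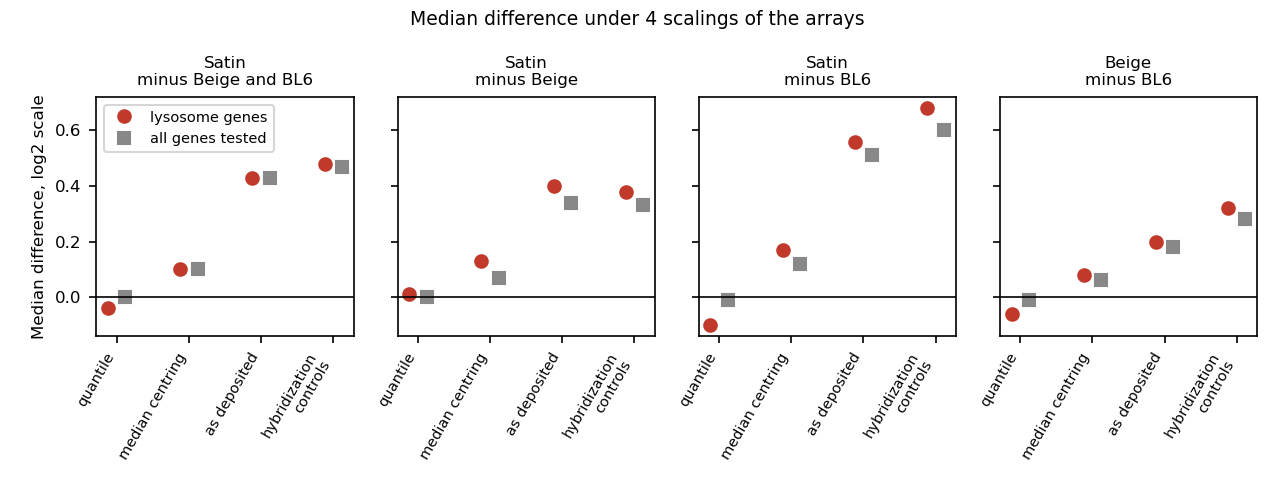
Median difference on the log2 scale (y axis) of the tested lysosome genes (circles) and of all genes tested (squares) under 4 scalings of the arrays (x axis), for each of the 4 comparisons. The circles stay within 0.09 of the squares in all 16 cases.

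Other genes of the lysosomal pathway were tested in the same fit. Of 122 further genes tested, in lists of other hydrolases, enzyme sorting, membrane proteins, V-ATPase subunits, organelle biogenesis, BEACH proteins and TFEB, mTORC1 and autophagy genes, 1 was called in Satin against both controls and none in the other 3 comparisons. At an unadjusted p under 0.05 there were 11 against both controls (9.02%, with 12.6% of all genes), 8 against Beige (6.56%, with 10.5%), 15 against BL6 (12.3%, with 12.6%) and 8 in Beige against BL6 (6.56%, with 5.13%). Their median difference against both controls was 0.00, with 61 above 0 and 61 below. Of the 15 other V-ATPase subunits 10 lay below 0, with a median of -0.20. Against BL6, 5 of the 15 (33.3%) had an unadjusted p under 0.05, all lower in Satin, and none was called.

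The called gene was Laptm4b, a membrane protein of late endosomes and lysosomes that binds ceramide. It was lower in Satin, with a log2 difference of -0.75 (SE 0.15, limma adjusted p = 0.0466). Its values were 9.99 and 10.05 in Satin, against 10.72 and 10.59 in Beige and 11.08 and 10.70 in BL6. The Satin arrays lay below all others. The difference was negative in all 16 other settings, from -0.83 to -0.23. The call was kept under 4 of them and lost under 12, so it depended on the processing and on single arrays. Among the losses were the fit with the replicate block (limma adjusted p = 0.0559) and the fits without either Satin or either Beige array.

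In the other lists no gene was called. Scpep1, a serine carboxypeptidase of the lysosome, read 9.36 and 9.04 in Satin, against 8.02 and 8.20 in Beige and 7.89 and 8.60 in BL6. Its difference was 1.02 (SE 0.21, adjusted p = 0.0558), and 6 of 16 other settings called it higher. Plbd2, a phospholipase B-like protein, differed by -0.86 (SE 0.28, adjusted p = 0.864) between Beige and BL6. Nbeal2, a BEACH protein related to Lyst that is needed for platelet alpha granules, read 6.53 and 6.43 in Satin, against 7.09 and 7.17 in Beige and 7.43 and 7.23 in BL6, a difference of -0.74 (SE 0.19, adjusted p = 0.121).

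Of the pigment granule genes, Mlph, melanophilin, which links RAB27A to a myosin, differed by -0.43 (SE 0.15, adjusted p = 0.249) and Hps4 by -0.53 (SE 0.19, adjusted p = 0.283) in Satin. Each remaining list is represented by the 2 genes with its smallest p in any comparison. Between Beige and BL6 the mTORC1 genes Lamtor4 and Mtor differed by 0.70 (SE 0.23) and -0.62 (SE 0.22). The V-ATPase genes Atp6v1f and Atp6ap2 differed by 0.46 (SE 0.16) and -0.42 (SE 0.21), and Atp6ap2 had its smallest p against BL6 in Satin, with -0.59 (SE 0.21, adjusted p = 0.297). Between Beige and BL6 the sorting genes Sort1 and Gnptab differed by -0.42 (SE 0.17) and 0.60 (SE 0.28). All 6 had an adjusted p = 0.864 between Beige and BL6.

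Beside these results, some markers of other cells were called in Satin against both controls. Over all genes 1% were called lower and 0.436% higher. All 10 smooth muscle markers lay below 0 with 4 called lower, where each of the 3 other scalings called 1 lower and as deposited and with the hybridization controls 9 of 10 lay below 0. Their summed signal was 7416 and 8164 in Satin, against 13489 and 15475 in Beige and 15735 and 10937 in BL6. Of 8 enteroendocrine markers 3 were called lower (2 with median centring), with sums of 4230 and 4414 in Satin, 10104 and 9341 in Beige, and 8429 and 8418 in BL6. The part of either in the fall of Asah1 and Laptm4b was not tested. Parietal cell markers, from cells with a proton pump of their own, lay above 0 in 6 of 6 with none called. As deposited 3 were called higher and with the hybridization controls 6, when 16.3% and 24.2% of all genes were called in either direction. The parietal sums, over 7 markers with the untested Slc26a7, overlapped. They were 17143 and 10251 in Satin, 11985 and 9612 in Beige, and 7984 and 9866 in BL6. Calls also fell among chief cell markers (1 of 3, higher), intestinal markers (2 of 9, lower) and antral mucous cell markers (1 of 8, lower).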

How the data were processed

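Linear signal intensities, 1 per probe set and array, were taken as deposited. The sources used here do not give the algorithm or scaling behind them. The 64 control probe sets were left out. The remaining signals were taken as log2(signal + 32), and the 6 arrays were quantile normalized. Of several probe sets with a single symbol, the one with the highest mean was used, and genes in the lowest 30% of probe sets by mean (below 5.74) were left out. A single fit of all arrays with limma 3.58.1 (R 4.3.3), using lmFit and eBayes with an intensity trend, gave two-sided tests (3 residual and 9.24 moderated degrees of freedom). The method was run on simulated data with independent noise and no difference in brightness between arrays. That run does not bear on the scaling of these arrays.

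Arrays were assigned by title. Nothing says that each array holds 1 animal, so p-values measure the spread between arrays. Over all genes, same-numbered arrays deviated together between strains (r = 0.19, 0.27 and 0.12), so the number was also fitted as a block. Over the members r was -0.11 for Satin and Beige, 0.33 for Satin and BL6, and -0.15 for Beige and BL6. Named genes are all members, Lyst, Foxq1, and from each other list the called genes or the 2 with the smallest p. Members and lists were chosen with earlier results of these data known. Of the sample columns 0 were unused.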

Additional observations from a re-analysis of the deposited data

How the results depend on the processing

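Each comparison was repeated under other pseudocounts, scalings, filters, probe set rules and fits, and with each array left out. The number of members called against both controls was 6 as deposited, 12 with the hybridization controls, and 0 with median centring or without the trend. Against Beige it was 0 as deposited, in the other scalings, without a filter, for averaged probe sets, without the trend and with the replicate block. The block changed no other count of members. Against BL6 it was 9 as deposited and 17 with the hybridization controls. With 1 array left out it ran from 0 to 2 against both controls, 0 to 1 against Beige and 0 to 1 against BL6. The 2 calls came without BL6 replicate 2. Between Beige and BL6 it was 0 in all settings run.

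The members' median difference was 0.43 as deposited, 0.10 after median centring and 0.48 with the hybridization controls against both controls. In the same order it was 0.40, 0.13 and 0.38 against Beige, 0.56, 0.17 and 0.68 against BL6, and 0.20, 0.08 and 0.32 between Beige and BL6. For averaged probe sets it was -0.04 against BL6 and 0.01 between Beige and BL6. With 1 array left out it ran from -0.06 to 0.01 against both controls and -0.05 to 0.03 against Beige. It ran from -0.17 to -0.04 against BL6 and -0.07 to 0.07 between Beige and BL6. Asah1, the 1 member called in the fit described above, stayed below 0 against both controls and against Beige in all settings run. Against BL6, Lamp2, Ctsz, Tpp1, Atp6ap1 and Atp6v1a were called higher with the hybridization controls. With quantile normalization these genes were not called and lay below 0, from -0.12 to -0.03.

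Of all genes, 135 were called against both controls, against 1531 as deposited, 2271 with the hybridization controls and 36 without the trend. With 1 array left out the count ran from 29 (without Beige replicate 2) to 293 (without BL6 replicate 2). Depth is unknown for arrays, and 2 per strain limit the precision. Npc1, Naglu, Tfeb, Rab27a, Rab38 and Lyst lie near the limit for testing, where differences are understated.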
